A study of Mus musculus with 9 samples.

Results

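Plxnd1, the 8 other plexin genes of the mouse (Plxna1, Plxna2, Plxna3, Plxna4, Plxnb1, Plxnb2, Plxnb3 and Plxnc1) and Sema3e, which encodes the semaphorin that binds plexin D1, were followed in hippocampal RNA. The 10 genes were taken by name from 33175 named genes, of 55471 counted, and all 10 were among the 17396 genes abundant enough to be tested. Plxnd1 had been picked because it differed between these same groups, so its values are given as a description and without a test. The study held 9 libraries from female mice aged 9 months, 3 in each of 3 groups. 3xTg LP-10d mice carried the alleles labelled APPSwe, tauP301L and PS1 and were given LP-10d, a compound that the series title links to kinase targets, by mouth at 10 mg/kg 4 times a week for 1 month. 3xTg vehicle mice had the same labelled alleles and received blank solvent by mouth 4 times a week. WT vehicle mice were labelled C57BL/6J and received the solvent on the same schedule. No group of WT mice received LP-10d. The labels give no background strain for the 3xTg mice, so that background strain and transgenes cannot be told apart in a comparison with C57BL/6J. The PS1 label reads M146V in 3xTg vehicle replicate 1 and goes up by one number in each further 3xTg library, to M151V in 3xTg LP-10d replicate 3. M146V is the mutation of the known line. In the known line, mutant human APP and tau are driven by a Thy1 promoter, which acts mainly in neurons. Whether the replicates came from different animals is not in the labels, and a p-value below therefore weighs a difference against library spread alone, which may be technical.

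Plexins are single-pass receptors at the cell surface whose cytoplasmic part acts as a GTPase-activating protein on small Ras-family GTPases. When a semaphorin binds, the receptor makes growth cones and other moving cells turn away or lose adhesion. Most secreted class 3 semaphorins need a neuropilin as co-receptor beside an A-type plexin, while Sema3e binds plexin D1 directly. Plexin D1 is known from blood vessels, where it restrains sprouting, and from the wiring of neurons, and the hippocampus keeps several semaphorins and plexins in adult life, where they bear on spines and synapses.

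Plxnd1 (ENSMUSG00000030123) is on the minus strand at chr6:115954811-115995005 of mm10. Plxna1 and Plxna4 are also on chromosome 6, Plxna3 and Plxnb3 on chromosome X, Plxna2 on chromosome 1, Plxnb1 on chromosome 9, Plxnb2 on chromosome 15, Plxnc1 on chromosome 10 and Sema3e on chromosome 5. Exons of Plxnd1, Plxna2, Plxna3, Plxnb2, Plxnb3 and Sema3e were shared with no other gene of GENCODE M21. Exons of Plxna1, Plxna4, Plxnb1 and Plxnc1 overlapped those of a small non-coding gene, and the strand setting of the counting is not given in the sources used here. The largest count of these 4 partners in any library was 71, for the antisense gene Gm26811 at Plxna1, against 3468 or more for Plxna1.

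The 250 bases before the annotated start are shown for 3 genes whose groups were apart in at least 1 comparison, Plxnd1, its ligand Sema3e and Plxna3. They come from RefSeq (GRCm38.p6) and run 5′ to 3′ on the gene's strand: chr6:115995006-115995255, minus, for Plxnd1, chr5:14025026-14025275, plus, for Sema3e and chrX:74328816-74329065, plus, for Plxna3. Capitals mark the SP box GGGCGG or its reverse complement, the letters bound by SP-type zinc finger proteins.
Plxnd1: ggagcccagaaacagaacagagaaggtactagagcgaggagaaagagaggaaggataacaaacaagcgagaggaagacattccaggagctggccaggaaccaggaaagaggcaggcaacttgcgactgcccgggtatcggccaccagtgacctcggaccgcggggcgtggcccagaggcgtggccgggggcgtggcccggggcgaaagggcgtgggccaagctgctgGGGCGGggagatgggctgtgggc
Sema3e: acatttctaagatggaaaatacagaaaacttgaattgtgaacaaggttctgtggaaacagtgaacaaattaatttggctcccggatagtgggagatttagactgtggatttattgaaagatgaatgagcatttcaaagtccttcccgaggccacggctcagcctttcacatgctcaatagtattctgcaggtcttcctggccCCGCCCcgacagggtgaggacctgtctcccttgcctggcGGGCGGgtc
Plxna3: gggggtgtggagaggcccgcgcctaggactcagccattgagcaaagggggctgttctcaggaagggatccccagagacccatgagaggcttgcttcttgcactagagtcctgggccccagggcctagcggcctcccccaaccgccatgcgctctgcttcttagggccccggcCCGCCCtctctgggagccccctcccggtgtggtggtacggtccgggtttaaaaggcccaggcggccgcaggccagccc
The window of Plxnd1 held 1 SP box, 16 CpG and 64.8% G and C. The window of Sema3e held 2 SP boxes, 7 CpG and 48.0% G and C, and that of Plxna3 1 SP box, 12 CpG and 68.0% G and C. An SP box stood in 32.7% of 32851 RefSeq windows of this length, whose medians were 6 CpG and 52.4% G and C. Plxnd1 and Plxna3 thus lay above the typical window in CpG and in G and C, and Sema3e lay close to it. None of the 3 windows held the cAMP response element TGACGTCA (1.55% of all windows), the AP-1 site TGANTCA (6.75%), the EGR site GCGNGGGCG (4.70%; it can overlap an SP box), the TATA box TATAAA (12.4%) or the hypoxia core ACGTG (16.6%), each searched on both strands. Windows were also found for Plxna2, Plxnb1, Plxnb2, Plxnb3 and Plxnc1, and SP boxes were in all of them except that of Plxnb3. Plxna1 and Plxna4 had no entry. A match of letters is a description of the sequence only.

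Total counts ran from 16582086 to 19170969 per library. Some libraries stood apart in markers of tissue that lies next to the hippocampus. The 8 choroid plexus markers, led by Ttr, summed to between 20.2 and 3588 FPKM (the authors' level scaled to gene length and library total) over the 9 libraries, the highest in WT vehicle replicate 2, and stood at 1676 FPKM in WT vehicle replicate 3, which had the highest sum of the 6 thalamic markers at 78.7 FPKM. The 10 striatal markers summed to 444 FPKM in 3xTg vehicle replicate 2 and to between 41.3 and 77.4 FPKM in the other 8 libraries. The 9 markers of excitatory hippocampal neurons, led by Slc17a7, were detected in every library and summed to between 481 and 756 FPKM. Results were therefore also computed leaving out 3xTg vehicle replicate 2 together with WT vehicle replicate 3 and, an alternative chosen after seeing the data, together with WT vehicle replicate 2.

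Plxna1 was the most abundant plexin per length, at a mean of 25.7 ± 3.43 FPKM (SD over 9 libraries), followed by Plxnb1 at 22.9 ± 1.96 FPKM. Plxna1 works with neuropilins and with class 6 semaphorins, and Plxnb1 binds Sema4d. Plxnb2 averaged 17.6 FPKM, Plxna4 16.0 FPKM, Plxnd1 12.6 FPKM, Plxnb3 10.4 FPKM, Plxna2 8.70 FPKM, Plxna3 7.81 FPKM and Plxnc1 5.41 FPKM. Sema3e averaged 5.19 FPKM, below its receptor. The ranges of each gene and the next in this order overlapped, so no pair of neighbours was separated. Plxnd1 had the widest range in proportion to its level, 6.57 to 19.5 FPKM, and its counts ran from 865 to 2486.

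**Figure D1:**
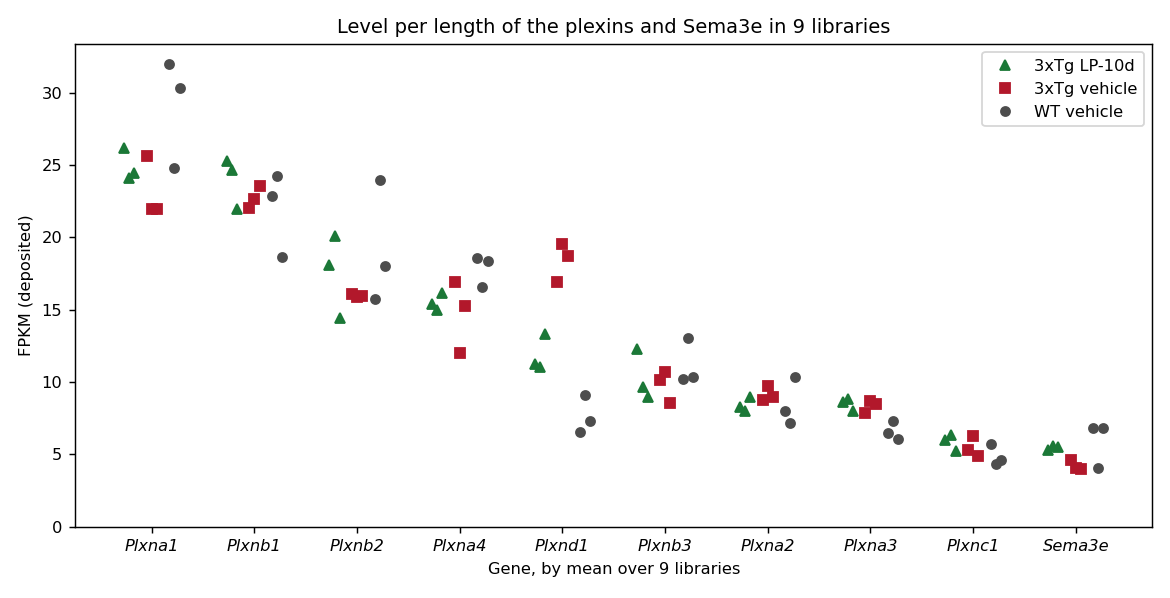
FPKM of the 9 plexins and Sema3e (vertical axis) in each of the 9 libraries, with genes ordered along the horizontal axis by their mean. Each symbol is 1 library, coloured by group; in Plxnd1 the 3xTg vehicle libraries (16.9 to 19.5 FPKM), the 3xTg LP-10d libraries (11.0 to 13.3 FPKM) and the WT vehicle libraries (6.57 to 9.10 FPKM) form separate groups.

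Plxnd1 was highest in 3xTg vehicle hippocampus, lowest in WT vehicle and between them in 3xTg LP-10d. Its counts were 1430, 1335 and 1778 in 3xTg LP-10d, 2340, 2486 and 2485 in 3xTg vehicle and 865, 1233 and 1026 in WT vehicle libraries. In CPM with TMM-scaled library sizes, 3xTg LP-10d libraries had 80.7, 79.1 and 97.6, 3xTg vehicle libraries 123, 141 and 135, and WT vehicle libraries 49.4, 64.6 and 57.1. No library of 1 group reached the range of another. Groups were apart in this way for 17.4% of all genes tested between 3xTg vehicle and WT vehicle, 11.6% between 3xTg LP-10d and 3xTg vehicle and 14.4% between 3xTg LP-10d and WT vehicle, and nothing is read from Plxnd1 being among them, since it was picked on these contrasts. The group means were 85.8 ± 10.2 CPM in 3xTg LP-10d, 133 ± 9.18 CPM in 3xTg vehicle and 57.0 ± 7.60 CPM in WT vehicle (SD, n = 3 each). The fitted log2 fold change was 1.22 ± 0.12 (SE) for 3xTg vehicle against WT vehicle, a 2.33-fold higher level. It was -0.63 ± 0.12 for 3xTg LP-10d against 3xTg vehicle, 0.644 times the vehicle level, and 0.59 ± 0.12 for 3xTg LP-10d against WT vehicle. Each pair of these comparisons has 3 libraries in common, so they are not independent. In bulk RNA, fewer cells of a type and less RNA per cell cannot be told apart.

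**Figure D2:**
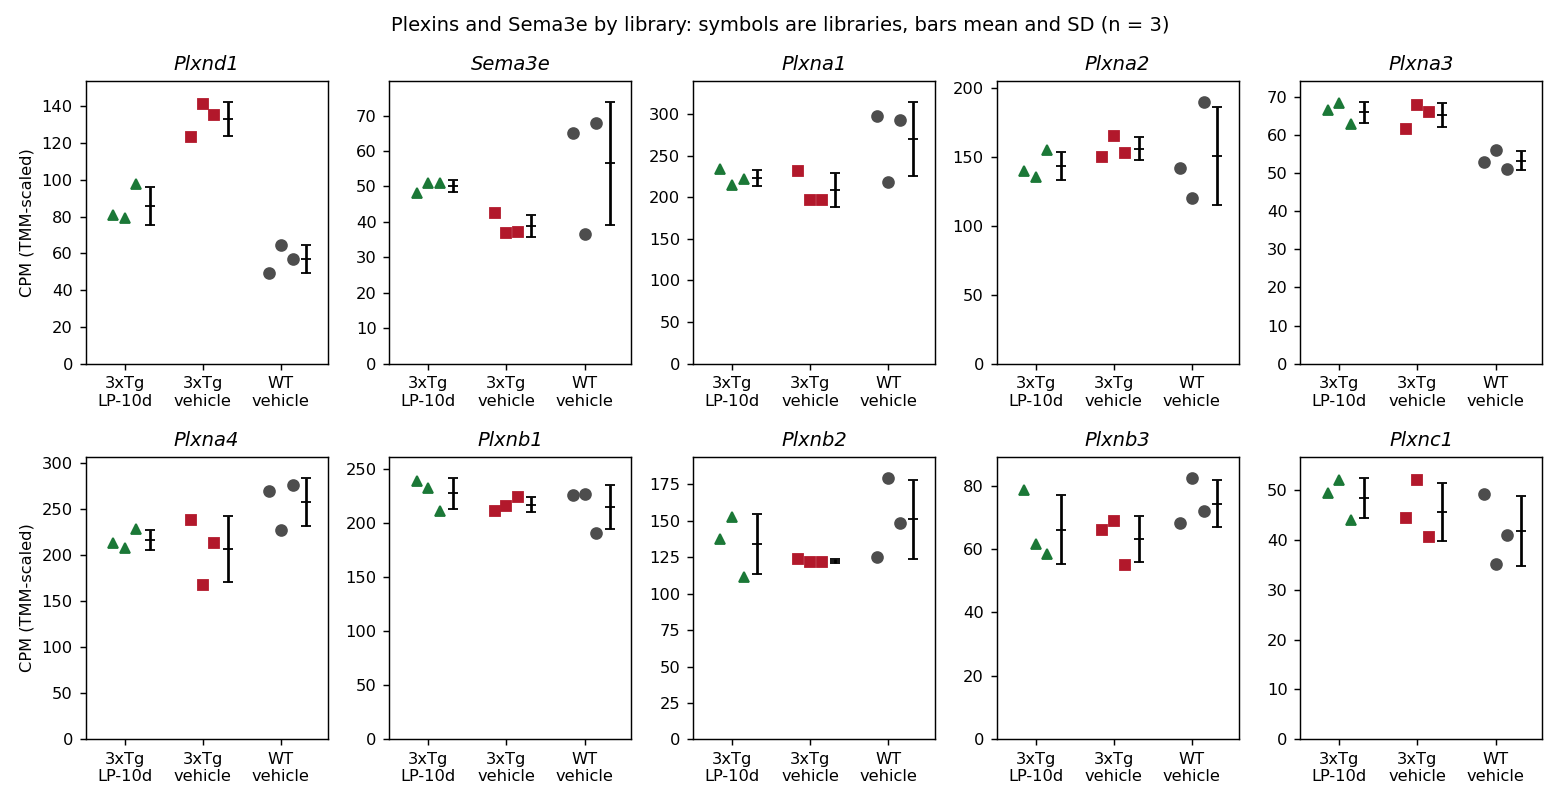
TMM-scaled CPM of Plxnd1, Sema3e and the 8 other plexins (vertical axes, each from 0) in the 3 groups (horizontal axes). Symbols are libraries and bars give the mean and SD of 3 libraries; Plxnd1 spans 79.1 to 97.6 CPM for 3xTg LP-10d, 123 to 141 CPM for 3xTg vehicle and 49.4 to 64.6 CPM for WT vehicle, with no overlap.

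Plxnd1 was picked on these contrasts and its groups did not overlap. Leaving out 1 library could therefore hardly turn a sign, and the ranges that follow are a description only. The 3 fold changes of Plxnd1 kept their sign and most of their size whichever library was left out. They lay between 1.13 and 1.32 for 3xTg vehicle against WT vehicle, between -0.74 and -0.58 for 3xTg LP-10d against 3xTg vehicle and between 0.49 and 0.69 for 3xTg LP-10d against WT vehicle. In the same order of comparisons they were 1.17, -0.59 and 0.59 when 3xTg vehicle replicate 2 and WT vehicle replicate 3 were both left out, and 1.28, -0.59 and 0.69 when 3xTg vehicle replicate 2 and WT vehicle replicate 2 were. Endothelial cells are the best known site of Plxnd1. The 13 endothelial markers, led by Cldn5, summed to 95.5 to 107 FPKM in 3xTg LP-10d, 94.4 to 107 FPKM in 3xTg vehicle and 70.6 to 99.8 FPKM in WT vehicle, and none was at 0 in a library. Of these, 6 were higher and 7 lower in 3xTg vehicle than in WT vehicle, with a median log2 fold change of -0.03, and 7 were higher and 6 lower in 3xTg LP-10d than in 3xTg vehicle, with a median of 0.01. Cldn5 had log2 fold changes of 0.41 ± 0.19 (SE) and 0.08 ± 0.19 in the same order. The endothelial list was mixed in direction, and its part in the values of Plxnd1 was not tested. The 8 neocortical markers, led by Fezf2, were all higher in 3xTg vehicle than in WT vehicle (median log2 fold change 0.54), and 7 of 8 were lower in 3xTg LP-10d than in 3xTg vehicle (median -0.28). They summed to 59.1 to 76.1 FPKM in 3xTg LP-10d, 66.0 to 89.3 FPKM in 3xTg vehicle and 49.2 to 59.3 FPKM in WT vehicle. The 5 erythroid markers, led by Hba-a1, were all higher in 3xTg vehicle than in WT vehicle and all lower in 3xTg LP-10d than in 3xTg vehicle. They summed to 92.7 to 145 FPKM in 3xTg LP-10d, 133 to 222 FPKM in 3xTg vehicle and 39.7 to 97.5 FPKM in WT vehicle. Of the 7 interneuron markers, 6 were higher in 3xTg vehicle than in WT vehicle (median 0.19) and 5 lower in 3xTg LP-10d than in 3xTg vehicle (median -0.13). They summed to 337 to 406 FPKM in 3xTg LP-10d, 334 to 386 FPKM in 3xTg vehicle and 285 to 340 FPKM in WT vehicle. The 10 microglial markers went the same way by less, with 8 higher (median 0.09) and then 9 lower (median -0.10), and summed to 175 to 196 FPKM in 3xTg LP-10d, 194 to 212 FPKM in 3xTg vehicle and 141 to 208 FPKM in WT vehicle. All 10 striatal markers were higher in 3xTg vehicle than in WT vehicle (median 1.82) and lower in 3xTg LP-10d than in 3xTg vehicle (median -2.08). They summed to 41.7 to 44.6 FPKM in 3xTg LP-10d, 44.0 to 444 FPKM in 3xTg vehicle and 41.3 to 77.4 FPKM in WT vehicle. Markers of excitatory hippocampal neurons took the opposite direction to Plxnd1, 8 of 9 lower in 3xTg vehicle than in WT vehicle (median -0.47) and 7 of 9 higher in 3xTg LP-10d than in 3xTg vehicle (median 0.21). They summed to 633 to 666 FPKM in 3xTg LP-10d, 481 to 711 FPKM in 3xTg vehicle and 625 to 756 FPKM in WT vehicle. All 8 choroid plexus markers were likewise lower and then higher (medians -2.55 and 1.64), with sums of 20.2 to 2124 FPKM in 3xTg LP-10d, 27.5 to 732 FPKM in 3xTg vehicle and 33.1 to 3588 FPKM in WT vehicle. None of these lists had a marker at 0, and their part in the values of Plxnd1 was not tested.

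Among the plexins, Plxnd1 made up a different share of a nearly level sum in each group. The 9 plexins together had 127 ± 4.95 FPKM in 3xTg LP-10d, 128 ± 1.72 FPKM in 3xTg vehicle and 127 ± 3.31 FPKM in WT vehicle (SD, n = 3 each). Plxnd1 made up 9.39% ± 1.37 of that sum in 3xTg LP-10d, 14.4% ± 1.20 in 3xTg vehicle and 6.03% ± 0.888 in WT vehicle. Its shares ran from 8.55% to 11.0% in 3xTg LP-10d, from 13.0% to 15.3% in 3xTg vehicle and from 5.21% to 6.97% in WT vehicle, so that the groups did not overlap. Plxnd1 was picked on these contrasts and the sum was nearly level, so this separation repeats the choice and is no further result. The sum of the 8 other plexins was 108 to 120 FPKM in 3xTg LP-10d, 108 to 113 FPKM in 3xTg vehicle and 117 to 121 FPKM in WT vehicle. By FPKM, Plxnd1 ranked 5 or 6 of the 9 plexins in 3xTg LP-10d libraries, 3 or 4 in 3xTg vehicle and 6 or 7 in WT vehicle. Plxna1 or Plxnb1 was the most abundant plexin in every library.

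Sema3e, the ligand, lay in the opposite order to its receptor by group mean, with libraries that overlapped in part. It had 48.2, 51.0 and 51.1 CPM in 3xTg LP-10d, 42.5, 37.0 and 37.0 CPM in 3xTg vehicle and 65.0, 36.5 and 67.9 CPM in WT vehicle. In all 3 3xTg LP-10d libraries Sema3e was above the 3xTg vehicle libraries, as were 5.82% of all genes tested, while WT vehicle replicate 2 was as low as 3xTg vehicle and the other two WT libraries were the highest of all. The log2 fold change for 3xTg vehicle against WT vehicle was -0.54 ± 0.19 (SE), with adjusted p = 0.284 in edgeR's quasi-likelihood test over all 17396 genes. Without WT vehicle replicate 2 it was -0.78, with adjusted p = 0.0369 in edgeR, so that 1 library decides this call. In 3xTg LP-10d against 3xTg vehicle Sema3e was at 0.37 ± 0.19, with an adjusted p of 1.00 in edgeR, and in 3xTg LP-10d against WT vehicle at -0.17 ± 0.19, with adjusted p = 0.748.

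Plxna3, a receptor of class 3 semaphorins that works with neuropilins and is known in mice for the pruning of hippocampal axons, was higher in all 6 3xTg libraries than in WT vehicle. It had 66.6, 68.2 and 63.0 CPM in 3xTg LP-10d, 61.7, 67.8 and 66.1 CPM in 3xTg vehicle and 52.8, 55.9 and 51.1 CPM in WT vehicle. The 2 groups of 3xTg libraries overlapped each other and neither overlapped WT vehicle, in CPM and in FPKM. Of all genes tested, 9.38% were likewise higher and apart in 3xTg vehicle and 7.49% in 3xTg LP-10d, each against WT vehicle. The log2 fold change was 0.29 ± 0.077 (SE) for 3xTg vehicle against WT vehicle. The adjusted p was 0.185 in edgeR, 0.209 in limma-voom and 0.0395 in DESeq2, so the call was made by DESeq2 alone, which called 2.24% of all genes in this comparison against 0.00575% by edgeR. Against WT vehicle, 3xTg LP-10d differed by 0.31 ± 0.077, with adjusted p = 0.499 in edgeR and 0.0976 in DESeq2. Between 3xTg LP-10d and 3xTg vehicle the log2 fold change was 0.02, with a 95% interval of -0.15 to 0.19, and no difference was detected.

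The other A-type plexins gave lower or level values in 3xTg hippocampus, none past the adjusted threshold. Plxna1 had 233, 214 and 222 CPM in 3xTg LP-10d, 232, 197 and 197 CPM in 3xTg vehicle and 298, 218 and 293 CPM in WT vehicle. WT vehicle replicate 2, low for Sema3e too, lay within the 3xTg range. The log2 fold change of Plxna1 was -0.37 ± 0.12 (SE) for 3xTg vehicle against WT vehicle, with adjusted p = 0.251 in edgeR. Between 3xTg LP-10d and WT vehicle it was -0.27 ± 0.12, with adjusted p = 0.569 in edgeR. Plxna4, which like Plxna2 binds the transmembrane ligand Sema6a, had 213, 208 and 228 CPM in 3xTg LP-10d, 238, 167 and 213 CPM in 3xTg vehicle and 269, 227 and 276 CPM in WT vehicle. Its log2 fold change for 3xTg vehicle against WT vehicle was -0.32 ± 0.13, with adjusted p = 0.314 in edgeR. By FPKM, which uses plain totals, the 3xTg LP-10d libraries of Plxna4 lay below all WT vehicle libraries, whereas by TMM-scaled CPM they met. Plxna2 averaged 143 ± 10.2 CPM in 3xTg LP-10d, 156 ± 8.20 CPM in 3xTg vehicle and 151 ± 35.7 CPM in WT vehicle (SD, n = 3 each), and its widest group was WT vehicle. Between 3xTg vehicle and WT vehicle its log2 fold change was 0.05, with a 95% interval of -0.27 to 0.37.

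None of the B-type plexins passed the adjusted threshold in edgeR, nor did Plxnc1. Plxnb1 averaged 227 ± 14.2 CPM in 3xTg LP-10d, 217 ± 6.84 CPM in 3xTg vehicle and 214 ± 20.4 CPM in WT vehicle (SD, n = 3 each). Its log2 fold change for 3xTg vehicle against WT vehicle was 0.02, with a 95% interval of -0.18 to 0.21. Plxnb2, a receptor of class 4 semaphorins, had 138, 152 and 112 CPM in 3xTg LP-10d, 124, 121 and 122 CPM in 3xTg vehicle and 125, 180 and 148 CPM in WT vehicle. The 3xTg vehicle libraries were all below WT vehicle in CPM by a narrow margin, as were 7.99% of all genes, and overlapped them in FPKM. The log2 fold change was -0.30 ± 0.14 (SE), with adjusted p = 0.361 in edgeR. Plxnb3, which binds Sema5a and is known from oligodendrocytes, averaged 66.1 ± 10.9 CPM in 3xTg LP-10d, 63.2 ± 7.32 CPM in 3xTg vehicle and 74.2 ± 7.37 CPM in WT vehicle. Of the 10 oligodendrocyte markers, led by Mbp, 8 were lower in 3xTg vehicle than in WT vehicle and all 10 higher in 3xTg LP-10d than in 3xTg vehicle, and their part in the Plxnb3 values was not tested. They summed to 989 to 1354 FPKM in 3xTg LP-10d, 860 to 1085 FPKM in 3xTg vehicle and 1088 to 1303 FPKM in WT vehicle, with none at 0. Plxnc1, the receptor of Sema7a, averaged 48.3 ± 4.06 CPM in 3xTg LP-10d, 45.5 ± 5.81 CPM in 3xTg vehicle and 41.7 ± 7.01 CPM in WT vehicle. Its 95% interval for the log2 fold change between 3xTg vehicle and WT vehicle was -0.18 to 0.43.

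Counted over the 9 genes other than Plxnd1, edgeR made no call in any of the 3 comparisons. For 3xTg vehicle against WT vehicle, 4 were higher and 5 lower, with a median log2 fold change of -0.23 beside 0.00 over all genes tested. In that comparison 0 of the 9 passed edgeR's adjusted threshold of 0.05, which 0.00575% of all genes passed. Limma-voom called 0 of the 9 too, beside 0.00575% of all genes. At an unadjusted edgeR p under 0.05 there were 4 of the 9 (Plxna1, Plxna3, Plxna4 and Sema3e), beside 14.1% of all genes, and DESeq2 called 1, Plxna3, beside 2.24% of all genes. Groups did not overlap in CPM for 2 of the 9, beside 17.4% of all genes: Plxna3 was higher, as were 9.38% of all genes, and Plxnb2 lower, as were 7.99%. In 3xTg LP-10d against 3xTg vehicle, 8 were higher and 1, Plxna2, lower, with a median of 0.07. There 0 of the 9 passed at an unadjusted edgeR p under 0.05, beside 2.90% of all genes. EdgeR and limma-voom called 0 of all genes, and DESeq2 called 0 of the 9, beside 0.00575% of all genes. Sema3e alone of the 9 had groups that did not overlap, and higher, beside 5.82% of all genes that did so and 11.6% in either direction; 5.81% were apart and lower, Plxnd1 among them. In 3xTg LP-10d against WT vehicle, 3 were higher and 6 lower, with a median of -0.17. There edgeR and limma-voom called 0 of all genes and DESeq2 0 of the 9, beside 0.265% of all genes. Plxna1 and Plxna3 had an unadjusted edgeR p under 0.05, beside 8.75% of all genes, and of the 9 only Plxna3 had groups that did not overlap, beside 14.4% of all genes, 7.49% higher like Plxna3 and 6.89% lower. These 3 comparisons share libraries with each other. The widest log2 fold change among the 9 genes was 0.54 in size for 3xTg vehicle against WT vehicle, 0.37 for 3xTg LP-10d against 3xTg vehicle and 0.31 for 3xTg LP-10d against WT vehicle. Beside them, the fold changes of Plxnd1 were 1.22, -0.63 and 0.59 in the same order of comparisons.

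**Figure D3:**
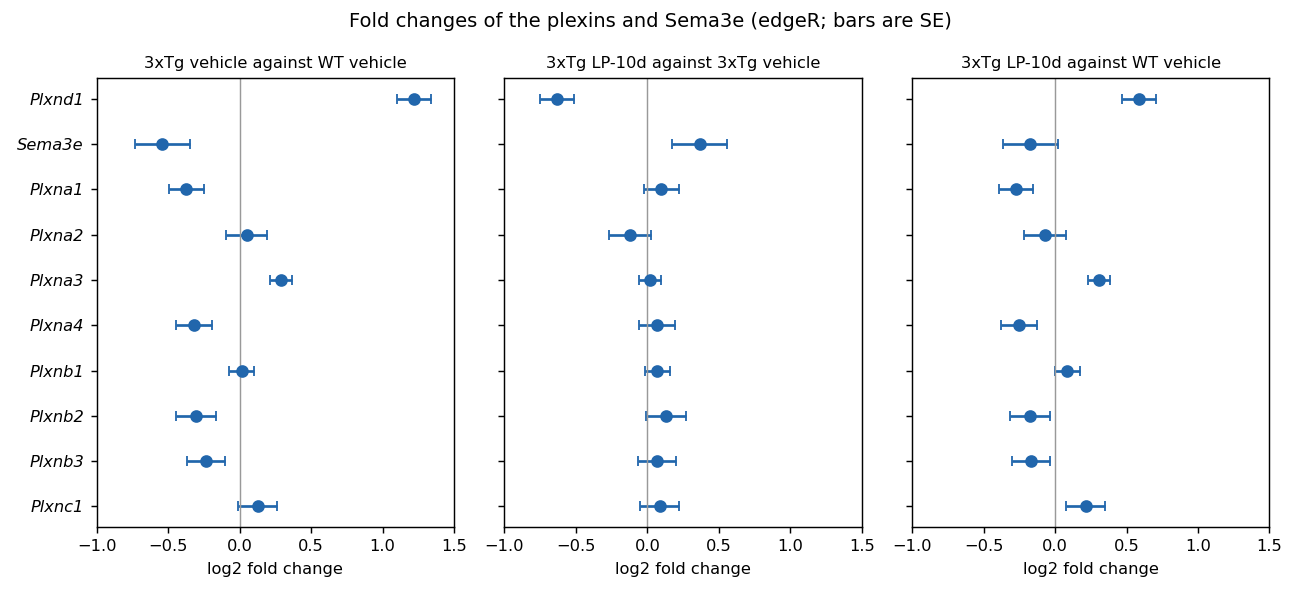
Log2 fold changes (horizontal axes) of Plxnd1, Sema3e and the 8 other plexins in 3 comparisons, with bars of 1 SE from the edgeR fit. Plxnd1 lies at 1.22, -0.63 and 0.59, and the other genes lie within 0.54 of 0 in all 3 panels.

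The semaphorin ligands were examined beyond Sema3e, 19 genes in all. In 3xTg vehicle against WT vehicle, 10 were higher and 9 lower with a median log2 fold change of 0.03, and edgeR called 0 of them while 4 had an unadjusted p under 0.05. The count for 3xTg LP-10d against 3xTg vehicle was 7 higher and 12 lower (median -0.01), 0 were called and 4 had an unadjusted edgeR p under 0.05. Against WT vehicle, 3xTg LP-10d had 8 higher and 11 lower (median -0.01), 0 were called and 1 had an unadjusted edgeR p under 0.05. In the same order of comparisons, edgeR called 0.00575%, 0% and 0% of all genes, with 14.1%, 2.90% and 8.75% at an unadjusted p under 0.05. The most abundant ligands per length were Sema6b at 60.6 FPKM, Sema7a, the ligand of plexin C1, at 56.7 FPKM and Sema4f at 14.2 FPKM, means over 9 libraries. Sema4a, a transmembrane ligand, had 64.3, 61.8 and 67.0 CPM in 3xTg LP-10d, 67.7, 89.7 and 84.7 CPM in 3xTg vehicle and 61.9, 57.5 and 44.9 CPM in WT vehicle. The 3xTg vehicle libraries of Sema4a were all above the other 2 groups, by a narrow margin over 3xTg LP-10d. Of all genes, 9.38% were higher and apart in 3xTg vehicle against WT vehicle, and 5.81% lower and apart in 3xTg LP-10d against 3xTg vehicle. The log2 fold change of Sema4a for 3xTg vehicle against WT vehicle was 0.56 ± 0.13 (SE), with adjusted p = 0.148 in edgeR and 0.0137 in DESeq2. Sema3a, the classic repellent of axons, was scarce, with 4.40, 2.55 and 3.57 CPM in 3xTg LP-10d, 5.58, 8.80 and 6.59 CPM in 3xTg vehicle and 2.97, 4.66 and 2.67 CPM in WT vehicle. The 3xTg vehicle libraries were again the highest. For 3xTg vehicle against WT vehicle the log2 fold change was 1.01 ± 0.27, with adjusted p = 0.185 in edgeR and 0.0372 in DESeq2. In 3xTg LP-10d it was lower than in 3xTg vehicle by a log2 fold change of -0.99 ± 0.27, with an adjusted p of 1.00 in edgeR and 0.981 in DESeq2. Sema5a, the ligand of plexin B3, had a log2 fold change of -0.49 ± 0.18 for 3xTg vehicle against WT vehicle, with adjusted p = 0.296 in edgeR. Its log2 fold change for 3xTg LP-10d against WT vehicle was -0.54 ± 0.18, with adjusted p = 0.557 in edgeR. Sema5b had one of -0.41 ± 0.14 for 3xTg LP-10d against 3xTg vehicle, with an adjusted p of 1.00 in edgeR.

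Both neuropilins lay low in 3xTg vehicle. Nrp2, co-receptor of Sema3f, had 78.0, 101 and 74.8 CPM in 3xTg LP-10d, 73.2, 63.2 and 60.6 CPM in 3xTg vehicle and 92.0, 88.2 and 93.0 CPM in WT vehicle. Nrp1, co-receptor of Sema3a and of vascular endothelial growth factor, had 62.9, 58.9 and 63.1 CPM in 3xTg LP-10d, 52.3, 40.6 and 51.7 CPM in 3xTg vehicle and 67.3, 55.7 and 67.9 CPM in WT vehicle. In both genes every 3xTg vehicle library was below every library of the other 2 groups, for Nrp2 by a narrow margin to 3xTg LP-10d. Of all genes, 7.99% were lower and apart in 3xTg vehicle against WT vehicle, and 5.82% higher and apart in 3xTg LP-10d against 3xTg vehicle. For 3xTg vehicle against WT vehicle, the log2 fold change of Nrp2 was -0.47 ± 0.12 (SE), with adjusted p = 0.172 in edgeR and 0.0265 in DESeq2. That of Nrp1 was -0.40 ± 0.12, with adjusted p = 0.215 in edgeR and 0.0822 in DESeq2. Between 3xTg LP-10d and 3xTg vehicle, the log2 fold changes were 0.36 ± 0.12 for Nrp2 and 0.35 ± 0.12 for Nrp1, each with an adjusted p of 1.00 in edgeR. These 2 comparisons share the 3xTg vehicle libraries. Of the 13 co-receptors, 7 were higher and 6 lower in 3xTg vehicle than in WT vehicle (median 0.02), and edgeR called 0 while 2 had an unadjusted p under 0.05. Of the same 13, 9 were higher and 4 lower in 3xTg LP-10d than in 3xTg vehicle (median 0.06), with 0 called by edgeR and 2 at an unadjusted p under 0.05. Against WT vehicle, 3xTg LP-10d had 6 higher and 7 lower (median 0.00), with 0 called and 0 at an unadjusted p under 0.05 in edgeR. In the same order of comparisons, edgeR called 0.00575%, 0% and 0% of all genes, with 14.1%, 2.90% and 8.75% at an unadjusted p under 0.05. L1cam at 28.5 FPKM, Cntn2 at 26.1 FPKM and Nrcam at 24.7 FPKM were the most abundant, all cell adhesion molecules of axons. Kdr, the receptor of vascular endothelial growth factor that can join plexin D1, had a mean of 1.90 FPKM. Its log2 fold change was 0.09 ± 0.13 for 3xTg vehicle against WT vehicle, with adjusted p = 0.766 in edgeR. For 3xTg LP-10d against WT vehicle it was 0.27 ± 0.13, with adjusted p = 0.579 in edgeR. Ptk7 had a log2 fold change of 0.35 ± 0.19 for 3xTg vehicle against WT vehicle, with adjusted p = 0.425 in edgeR.

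Among 36 genes of plexin signalling, Rnd1 had the smallest p. Rnd1 encodes a small GTPase that binds the cytoplasmic part of plexins and helps to activate them. It had 12.6, 12.3 and 14.8 CPM in 3xTg LP-10d, 13.0, 16.5 and 18.6 CPM in 3xTg vehicle and 6.68, 10.4 and 5.84 CPM in WT vehicle. All 6 3xTg libraries were above WT vehicle. Of all genes, 9.38% were likewise higher and apart in 3xTg vehicle and 7.49% in 3xTg LP-10d, each against WT vehicle. The log2 fold change for 3xTg vehicle against WT vehicle was 1.07 ± 0.21 (SE), with adjusted p = 0.104 in edgeR and 0.000836 in DESeq2. Between 3xTg LP-10d and 3xTg vehicle it was -0.28 ± 0.21, with an adjusted p of 1.00 in edgeR. Limk1, the kinase that inactivates cofilin, had 75.0, 68.8 and 77.6 CPM in 3xTg LP-10d, 76.7, 85.0 and 80.1 CPM in 3xTg vehicle and 61.6, 62.5 and 69.2 CPM in WT vehicle. Every 3xTg vehicle library was above every WT vehicle library, as for 9.38% of all genes. The log2 fold change of Limk1 was 0.32 ± 0.083, with adjusted p = 0.176 in edgeR and 0.0366 in DESeq2. Farp2, an exchange factor bound to plexin A1, had a log2 fold change of -0.32 ± 0.13 for 3xTg vehicle against WT vehicle, with adjusted p = 0.314 in edgeR. For 3xTg LP-10d against WT vehicle it was -0.33 ± 0.13, with adjusted p = 0.569 in edgeR. Rac1, a small GTPase, had log2 fold changes of -0.27 ± 0.13 and -0.32 ± 0.13 in the same order, with adjusted p = 0.373 and 0.569 in edgeR. Cofilin itself, Cfl1, was the most abundant gene of the list at 142 FPKM, followed by the kinase Pak1 at 73.5 FPKM and Rac1 at 50.9 FPKM. In 3xTg vehicle against WT vehicle, 18 of the 36 were higher and 18 lower (median 0.01), with 0 called by edgeR and 5 at an unadjusted p under 0.05. The split for 3xTg LP-10d against 3xTg vehicle was 16 higher and 20 lower (median -0.02), with 0 called by edgeR and 1 at an unadjusted p under 0.05. In 3xTg LP-10d against WT vehicle, 20 were higher and 16 lower (median 0.01), with 0 called by edgeR and 5 at an unadjusted p under 0.05. In the same order of comparisons, edgeR called 0.00575%, 0% and 0% of all genes, with 14.1%, 2.90% and 8.75% at an unadjusted p under 0.05.

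Taking ligands, co-receptors and signalling genes as 68 genes, 16.2% had an unadjusted edgeR p under 0.05 in 3xTg vehicle against WT vehicle, beside 14.1% of all genes. The share was 10.3% in 3xTg LP-10d against 3xTg vehicle, beside 2.90% of all genes, and 8.82% in 3xTg LP-10d against WT vehicle, beside 8.75% of all genes. DESeq2 called 5 of the 67 with an adjusted p in 3xTg vehicle against WT vehicle, namely Rnd1, Sema3a, Sema4a and Limk1, which were higher, and Nrp2, which was lower. That is 7.46%, beside 2.24% of all genes, and DESeq2 called 0 in the other 2 comparisons. Of all genes it called 0.00575% in 3xTg LP-10d against 3xTg vehicle and 0.265% in 3xTg LP-10d against WT vehicle. The lists were chosen with earlier results of these data known, and the DESeq2 count was added after seeing the data. No enrichment is therefore read from these shares. Both comparisons with 3xTg vehicle also use the same 3xTg vehicle libraries.

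**Figure D4:**
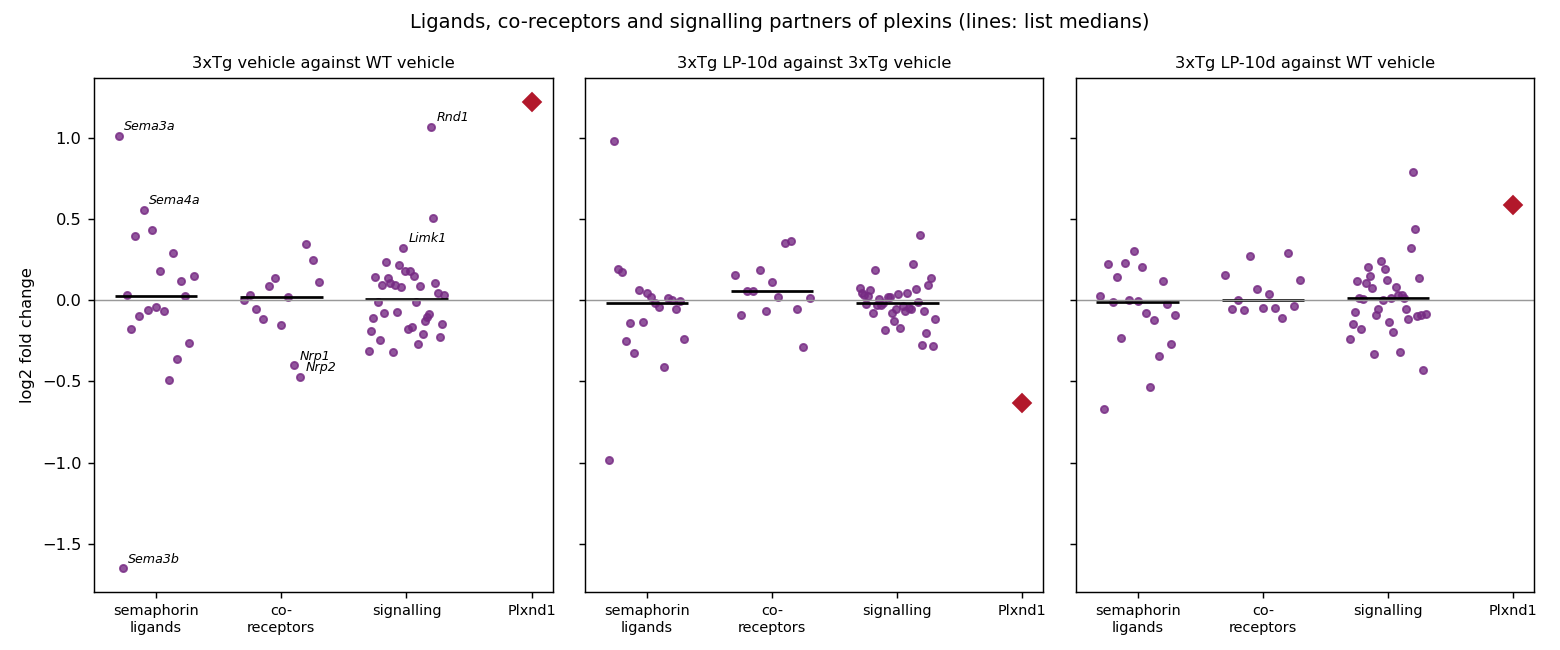
Log2 fold changes (vertical axis) of 19 semaphorin ligands, 13 co-receptors and 36 signalling genes in 3 comparisons, each point 1 gene and each line the median of its list, with Plxnd1 as a diamond. The medians lie near 0 in every panel; Rnd1 at 1.07, Sema3a at 1.01 and Nrp2 at -0.47 are among the labelled genes of the first panel.

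The pattern of Plxnd1 over the 9 libraries was set beside that of 13707 genes with a standard symbol and a mean of at least 1 CPM. The most alike by Pearson's r of log2 CPM were Ppm1a, a phosphatase, at 0.97, Dpp10, a subunit of A-type potassium channels, at 0.97, Tcap, a sarcomere protein, at 0.97, Fhod3, an actin-nucleating formin, at 0.96 and Tm6sf1 at 0.96. The 9 points share the group differences, so r was taken again after each group's mean was removed. It was then 0.88 for Fhod3, 0.84 for Dpp10, 0.66 for Ppm1a, 0.63 for Tm6sf1 and 0.60 for Tcap. These genes had been picked for a high r over the same libraries, and other genes were not taken through this step. The second values are therefore no independent check of the likeness. Fhod3 averaged 26.1 ± 5.25 CPM in 3xTg LP-10d, 40.4 ± 5.83 CPM in 3xTg vehicle and 17.1 ± 4.94 CPM in WT vehicle (SD, n = 3 each). Dpp10 averaged 44.3 ± 2.65 CPM in 3xTg LP-10d, 57.4 ± 7.32 CPM in 3xTg vehicle and 31.3 ± 5.16 CPM in WT vehicle. Tcap was scarce, at 1.27 ± 0.180 CPM in 3xTg LP-10d, 2.18 ± 0.479 CPM in 3xTg vehicle and 0.566 ± 0.0947 CPM in WT vehicle, and Ppm1a stayed between 162 and 191 CPM in all 9 libraries. Within the family, r with Plxnd1 was 0.77 for Plxna3, 0.18 for Plxna2, 0.14 for Plxnc1 and 0.01 for Plxnb1. It was -0.81 for Plxna1, -0.72 for Sema3e, -0.72 for Plxna4, -0.54 for Plxnb2 and -0.50 for Plxnb3. Group means were not removed from the r of the family, which thus carries the group differences on which Plxnd1 was picked. These values describe 9 libraries of 3 groups and share their tissue make-up and depth.

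None of the tested genes around Plxnd1 passed the adjusted threshold. Within 500 kb lay 32 other genes, of which 19 were tested and 0 were called by edgeR in any of the 3 comparisons. Of all genes edgeR called 0.00575% in 3xTg vehicle against WT vehicle and 0 in the other 2 comparisons, so 0 of 19 says little. At an unadjusted edgeR p under 0.05 there were 3 of the 19 in 3xTg vehicle against WT vehicle, beside 14.1% of all genes, 1 in 3xTg LP-10d against 3xTg vehicle, beside 2.90%, and 2 in 3xTg LP-10d against WT vehicle, beside 8.75%. The median log2 fold change of the 19 was 0.05 in 3xTg vehicle against WT vehicle, -0.04 in 3xTg LP-10d against 3xTg vehicle and 0.03 in 3xTg LP-10d against WT vehicle. Tmcc1, a membrane protein of the endoplasmic reticulum, lay at 23.6 kb. It had a log2 fold change of -0.23 in 3xTg vehicle against WT vehicle and 0.03 in 3xTg LP-10d against 3xTg vehicle. Ift122, of intraflagellar transport, lay at 28.1 kb and had log2 fold changes of 0.05 and -0.04 in the same 2 comparisons. Mbd4, a DNA repair glycosylase, lay at 101 kb and had 0.10 and -0.04. Tmem40, chosen after its values were seen, had the widest difference of the 19, with a log2 fold change of 2.54 ± 0.64 (SE) for 3xTg vehicle against WT vehicle, adjusted p = 0.166 in edgeR, and -1.97 ± 0.59 for 3xTg LP-10d against 3xTg vehicle, adjusted p of 1.00. Its signs were those of Plxnd1, at a mean of 0.268 FPKM over 9 libraries.

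**Figure D5:**
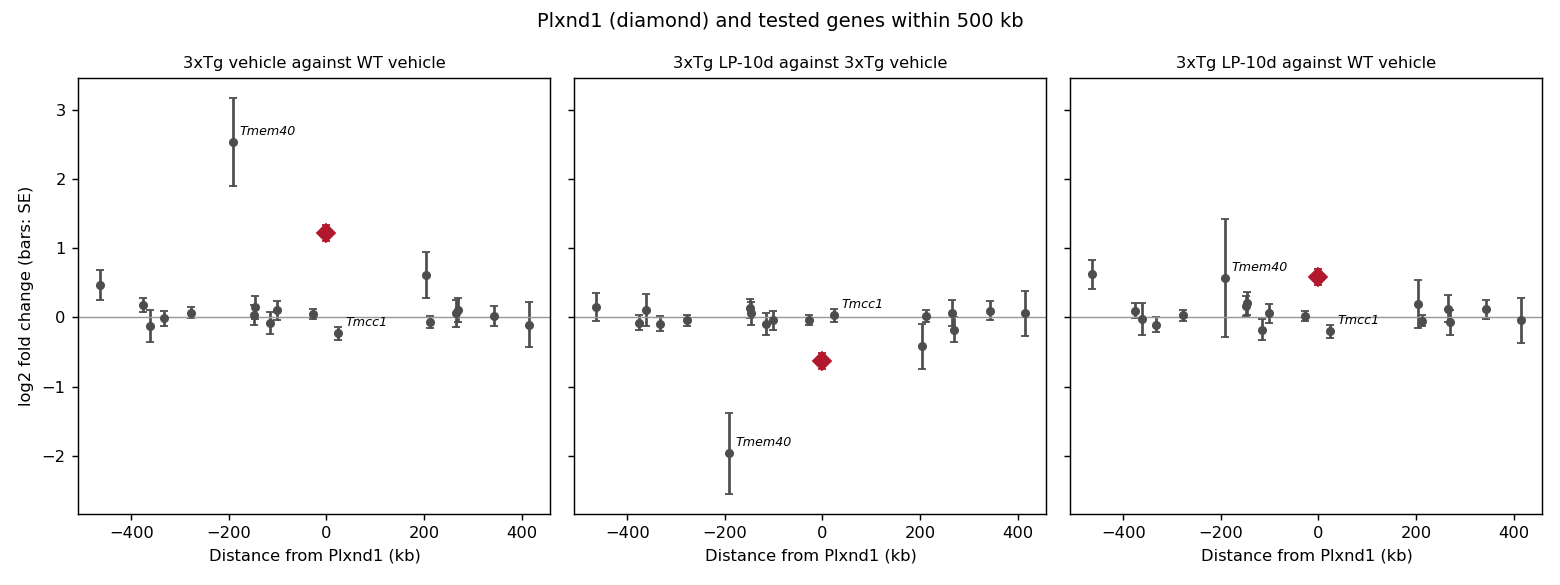
Log2 fold changes (vertical axis, bars of 1 SE) of 18 of the 19 tested genes within 500 kb of Plxnd1 by their distance from it (horizontal axis, kb) in 3 comparisons, with Plxnd1 as a diamond at 0. Most neighbours lie near 0, with Tmcc1 at -0.23 in the first panel, while the scarce Tmem40 lies at 2.54.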

How the data were processed

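Total RNA of hippocampus (TRIzol, chloroform and a column clean-up) was turned into 9 sequencing libraries with a kit from MGI, per the labels' protocols. The authors deposited raw gene counts and FPKM values, and for each gene the ratio of count to FPKM was proportional to the total count of the library. Per the submitters' processing notes the genome build is mm10. For the aligner, the counter and strandedness, no source used here gives a name or setting. Total counts of 16582086 to 19170969 per library gave each member at least 652 counts.

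The counts were fitted with edgeR 4.0.16 in R 4.3.3 (filterByExpr, TMM, 1 fit of 9 libraries by group means, quasi-likelihood test, Benjamini-Hochberg adjustment over 17396 genes, threshold 0.05). Levels between groups are TMM-scaled CPM computed from the deposited counts, levels between genes are the authors' FPKM. Fold changes are log2 values computed here from the deposited counts, and SE are from the same fit. The method was tested on simulated data. Replicates were compared by a chi-square test of their counts (genes with 20 or more counts in the pair), and every pair differed by more than sampling noise. Alternatives were DESeq2 1.42.0, limma 3.58.1 (voom, and trend on log2(FPKM + 0.1) or log2(FPKM + 1)), other scalings and filters, fits of 6 libraries, a replicate block and leaving out libraries.

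The members and gene lists were chosen with earlier results of these data known. Named from each list are genes past the threshold or else the 4 with the smallest p, and the 3 most abundant; from the neighbourhood, the 4 nearest; and the 5 genes most like Plxnd1. Of the neighbours named by this rule, 1 is not reported here. Deviations from the group means in same-numbered libraries of 3xTg LP-10d and 3xTg vehicle correlated over genes at 0.173, 0.104 and 0.375. Libraries of different number in these groups correlated at -0.298 to 0.180. The numbers come from the sample titles, and the labels do not say that libraries with the same number belong together. As an alternative they entered a replicate block in 1 fit of all 9 libraries, which blocks all 3 comparisons.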

Additional observations from a re-analysis of the deposited data

How the results depend on the processing

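Of 906 values of 42 results under up to 23 other settings, 886 stayed the same by the rule for their kind. Fold changes of the 9 other members had to keep direction and side of the threshold. Those of Plxnd1 had to keep direction and move by less than the SD of its log2 CPM within groups. Counts of calls had to be equal. Plxnd1 shares, with 3 alternatives each, had to move by less than the SD of their group. Leaving out 1 of 3 libraries cannot move a mean by that much, so the shares could only stay the same. In both comparisons of 3xTg LP-10d edgeR called 0 of all genes, so their counts of calls had little room to change. The 886 is therefore in part fixed in advance. The members called in 3xTg vehicle against WT vehicle were 1 with DESeq2 (Plxna3) and 0 to 1 when a library was left out (1, Sema3e, without WT vehicle replicate 2), and the pathway genes called were 5 with DESeq2, a count added after seeing the data. The cause was not tested. With 3xTg vehicle replicate 2 and WT vehicle replicate 3 both left out, Plxnb1 turned to -0.063 in 3xTg vehicle against WT vehicle, Plxna4 to -0.056 in 3xTg LP-10d against 3xTg vehicle and Plxna2 to 0.13 in 3xTg LP-10d against WT vehicle. With 3xTg vehicle replicate 2 and WT vehicle replicate 2 both left out, a setting chosen after seeing the data, Plxna2 turned to -0.13 and Plxnc1 to -0.087 in 3xTg vehicle against WT vehicle, and Plxna4 to -0.061 in 3xTg LP-10d against 3xTg vehicle. Leaving out 1 library, log2 fold changes that crossed 0 ran from -0.069 to 0.055 (Plxnb1) and -0.091 to 0.24 (Plxna2) in 3xTg vehicle against WT vehicle, from -0.015 to 0.048 (Plxna3), -0.061 to 0.19 (Plxna4) and -0.076 to 0.15 (Plxnb3) in 3xTg LP-10d against 3xTg vehicle, and from -0.21 to 0.13 (Plxna2) in 3xTg LP-10d against WT vehicle. With the replicate block, Plxnd1 was at 1.23, -0.63 and 0.59 in the order of the comparisons above, and 0 members were called in each, so the block changed no call. Same-numbered libraries correlated at -0.173, -0.0906 and -0.118 in 3xTg vehicle against WT vehicle and at -0.178, 0.160 and -0.109 in 3xTg LP-10d against WT vehicle. Libraries of different number correlated at -0.0509 to 0.176 in the former and at -0.288 to 0.386 in the latter. With 3 libraries a group, differences inside the intervals given are not excluded. The intervals hold for single genes, without adjustment for the number of genes tested, and do not mark the smallest detectable difference. In 3xTg vehicle against WT vehicle, those of Plxna1, Plxna3, Plxna4 and Sema3e left out 0, yet edgeR called none of these genes. The intervals of the other members tested included 0.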
